A study of Homo sapiens with 4 samples.

Results

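H3K9me3 peaks deep inside long protein-coding genes were described in Ishikawa, a long-established line grown from a human endometrial cancer. A peak was taken where its summit lay within the span of a RefSeq protein-coding gene of 200 kb or more and over 1 kb from either end of every RefSeq gene, on chromosomes 1, 2, 6, 7, 8, 9, 10, 11, 13, 14, 15 and 18. This rule kept 299 of the 4950 peaks in the series, 54 of the 1165 called in NC and 245 of the 3785 called in OE-KDM4A. Of the 862 genes of that length on the 12 chromosomes, 670 spanned 200 to 500 kb, 150 spanned 500 to 1000 kb and 42 spanned 1000 kb or more.

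The NC cells carry the label of no treatment, and the OE-KDM4A cells are labelled as overexpressing KDM4A. The vector, the use of an empty vector in NC and whether OE-KDM4A is a clone or a pool are not given in the sources used here. Both were grown in the same medium, fixed with formaldehyde and sonicated, and each gave 1 ChIP library and 1 input library, of which the ChIP peak lists were analysed. With 1 library per condition, no difference between NC and OE-KDM4A has a replicate check and none was tested. The 95% intervals in brackets are exact and reflect the counting of peaks alone, and the sequencing depth behind each list is unknown.

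H3K9me3 is laid down by SUV39H and SETDB1 methyltransferases and bound by HP1 proteins, and it marks silenced repeats and heterochromatin. KDM4A, the demethylase named in the series title, removes methyl groups from trimethylated lysine 9 and lysine 36 of histone H3. The longest human genes often encode adhesion and synaptic proteins, tend to replicate late, and several of them lie at common fragile sites, where chromosomes break under replication stress. Many of them are known for their roles in neurons rather than in endometrial epithelium.

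Away from the longest gene-free stretches, the interiors of long genes held peaks about as densely as ground outside protein-coding genes. Density is given as peaks per Mb of eligible ground, which is the sequence left after removing 1 kb on both sides of every gene end. For this comparison the longest gene-free stretch of each chromosome, which usually holds the centromere, was left out together with 5 Mb on either side. In NC, long genes held 0.153 peaks per Mb (0.115 to 0.201, 52 peaks), and ground outside protein-coding genes held 0.160 (0.133 to 0.190). In OE-KDM4A the densities were 0.690 (0.605 to 0.785, 234 peaks) and 0.762 (0.703 to 0.826). With the stretches kept in, ground outside protein-coding genes held 0.322 peaks per Mb in NC and 1.21 in OE-KDM4A, and long genes stood at 0.479 and 0.580 times those densities. Without the stretches, long genes held 4.50 times as many peaks in OE-KDM4A as in NC (3.32 to 6.20), and ground outside protein-coding genes 4.78 times as many (3.94 to 5.84). Genes under 50 kb showed a smaller ratio of 1.67 (1.01 to 2.79), with 27 NC and 45 OE-KDM4A peaks, and its interval does not meet that of the long genes. The interiors of genes of 50 to 200 kb lay between, at 3.18 (2.35 to 4.36). At a −log10 q of 3 or more the ratio was 2.556 (1.139 to 6.275) in genes under 50 kb. In long genes it was then 6.105 (3.739 to 10.51), and these 2 intervals overlap.

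Within the long genes, the NC intervals of the classes below 1000 kb did not meet, and those of OE-KDM4A all overlapped. With the gene-free stretches left out, NC held 0.210 peaks per Mb (0.150 to 0.288) in genes of 200 to 500 kb, 0.0615 (0.0226 to 0.134) in genes of 500 to 1000 kb and 0.125 (0.0502 to 0.257) in genes of 1000 kb or more. The intervals of the first and second class do not meet, while the class of 1000 kb or more, with 7 NC peaks, overlaps both. In OE-KDM4A the densities were 0.723 (0.606 to 0.856), 0.636 (0.487 to 0.815) and 0.678 (0.480 to 0.930), which all overlap. Over the whole 12 chromosomes, the ratio of OE-KDM4A to NC peaks was 3.60 (2.52 to 5.25) in genes of 200 to 500 kb. It was 9 (4.12 to 23.3) at 500 to 1000 kb and 5.43 (2.40 to 14.4) at 1000 kb or more, and these intervals overlap. The long genes of chromosomes 14 and 15 held 16 of the 54 NC peaks. All of these but the ones in GPHN and RAD51B lay in genes of 200 to 500 kb, the class of highest NC density. Without these chromosomes the ratios were 5.08 (3.315 to 8.06), 9 (3.88 to 25.6) and 6 (2.50 to 17.4). NC densities by class were not computed without these chromosomes, so whether the class intervals would then still not meet was not tested.

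**Figure D1:**
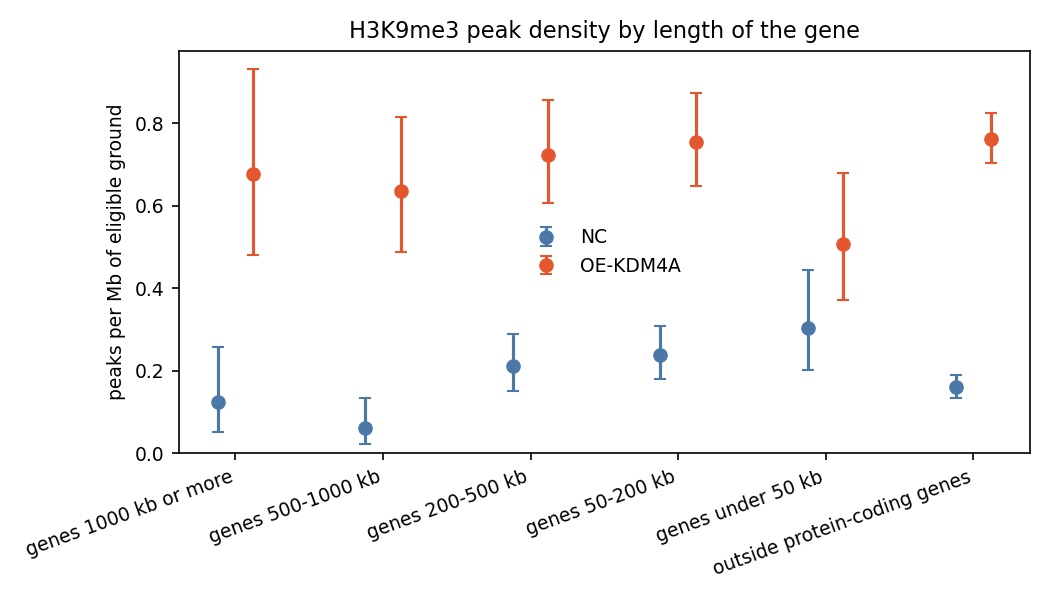
Peaks per Mb of eligible ground (vertical axis) for protein-coding genes grouped by length and for ground outside them (horizontal axis), gene-free stretches left out. Points are densities and bars exact 95% Poisson intervals; OE-KDM4A stays between 0.507 and 0.762 per Mb, and NC is highest in genes under 50 kb (0.304) and lowest in genes of 500 to 1000 kb (0.0615).

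Ground within 1 Mb of the long genes had densities whose intervals overlap those inside them. Within 1 Mb of a long gene, but outside every long gene, NC held 0.176 peaks per Mb (0.148 to 0.207) and OE-KDM4A 0.793 (0.733 to 0.857). Over the whole 12 chromosomes the long genes themselves held 0.154 (0.116 to 0.201) and 0.699 (0.614 to 0.792), and the intervals overlap in both lists. With flanks of 2 Mb the OE-KDM4A density was 0.895 (0.839 to 0.954) and no longer overlaps that inside the genes. The NC density in these flanks was 0.225 (0.198 to 0.256). For flanks of every width the gene-free stretches were kept in. Without the stretches, ground outside protein-coding genes held 0.160 peaks per Mb in NC and 0.762 in OE-KDM4A. Genes of 500 to 1000 kb held 0.0701 NC peaks per Mb (0.0282 to 0.145) against 0.180 (0.128 to 0.248) in their flanks, and here too the intervals overlap. Their OE-KDM4A densities were 0.631 inside and 0.803 in the flanks.

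The ratio of the lists depended on which peaks were kept. At a −log10 q of 5 or more, 6 NC and 40 OE-KDM4A peaks remained inside long genes, and at 10 or more 2 and 7. Outside the gene-free stretches the ratio at 5 or more was 6.50 (2.73 to 18.8) inside long genes and 6.77 (4.05 to 12.01) outside protein-coding genes. When the OE-KDM4A list was shortened to the length of the NC list by q, which leaves only its strongest peaks, long genes had 25 OE-KDM4A peaks beside the 54 of NC, a ratio of 0.463 (0.276 to 0.757), so the direction turned. In genes of 500 to 1000 kb no NC peak outside the gene-free stretches reached a −log10 q of 3, while 27 OE-KDM4A peaks did.

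Most of the peaks inside long genes were small. The median pileup, the number of ChIP fragments stacked at the summit as recovered from the deposited fold enrichment and −log10 p, was 8 in NC (quartiles 7 and 10) and 9 in OE-KDM4A (8 and 10). In NC 43 of 54 peaks (79.6%) and in OE-KDM4A 191 of 245 (77.96%) stood on 10 fragments or fewer, and the lowest pileup was 7 in both. The median fold enrichment was 4.42 in NC (quartiles 4.16 and 5.12) and 4.72 in OE-KDM4A (4.199 and 5.26), and the median −log10 q was 2.23 and 2.66. Other peaks of the same chromosomes outside the gene-free stretches had close medians, with fold enrichments of 4.40 in NC and 4.72 in OE-KDM4A. Fold enrichment and q are the authors' own values for each peak. The median NC peak was 134.5 bp wide and the median OE-KDM4A peak 125 bp, and 5 and 8 peaks reached 200 bp.

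The control background differed in form between the lists. It stood at the lowest value of the list at 165 of the 245 OE-KDM4A peaks (67.3%, 61.1 to 73.2) and at 7 of the 54 NC peaks (13.0%, 5.37 to 24.9). That lowest value was 0.905 fragments in OE-KDM4A and 0.811 in NC. Other peaks of the 12 chromosomes, gene-free stretches left out, stood at it in 55.95% of cases in OE-KDM4A (52.6 to 59.2). In NC 6.34% of them did (3.74 to 9.96), so the lists differed there too. Many OE-KDM4A peaks inside long genes at a background of 0.905 carried identical values. Of these, 45 had 7 fragments and a fold enrichment of 4.199, 38 had 8 fragments and 4.72, and 42 had 9 fragments and 5.25. In all, 194 of the 245 OE-KDM4A peaks and 14 of the 54 NC peaks shared their fold enrichment and −log10 p with another. The part of the input libraries in the number of peaks was not tested.

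**Figure D2:**
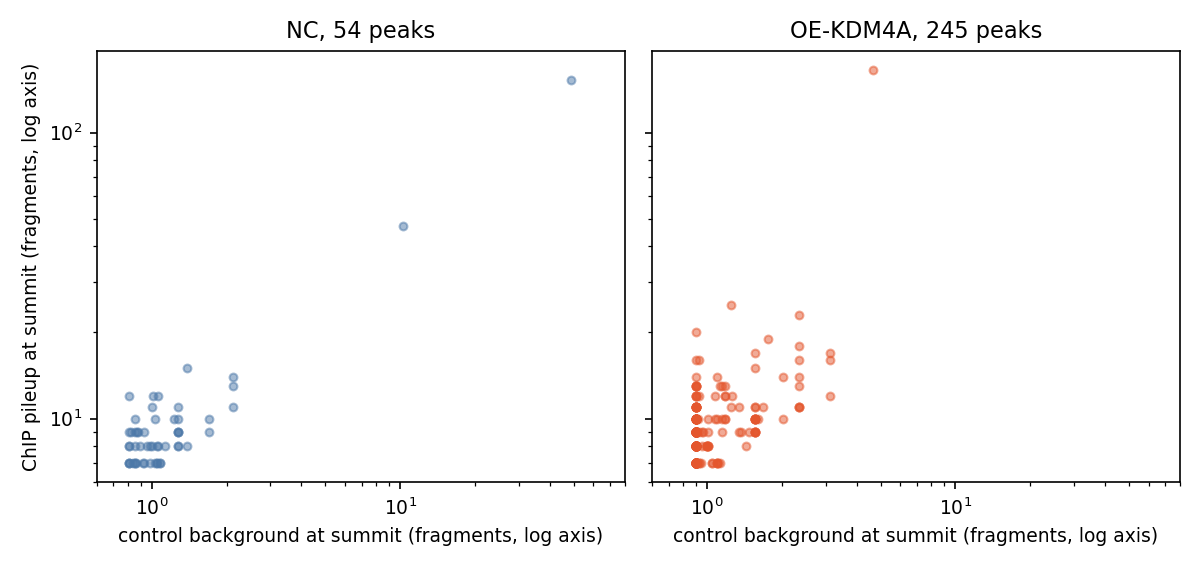
ChIP pileup at the summit against control background at the summit, both in fragments on log axes, for the 54 NC peaks (left) and the 245 OE-KDM4A peaks (right) inside long genes. Each point is 1 peak; most lie at 7 to 10 fragments, OE-KDM4A points pile up at a background of 0.905, and the point at 165 fragments over 4.67 is the place in SH3RF3 that stands at 153 over 48.6 in NC.

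By gene, 51 of the 862 long genes held an NC peak (5.92% of those tested) and 202 held an OE-KDM4A peak (23.4%). Over all 10661 protein-coding genes of the 12 chromosomes, counted in the same way, the shares were 1.36% and 4.19%. In OE-KDM4A the share was 18.8% of genes of 200 to 500 kb, 34.7% at 500 to 1000 kb and 57.1% at 1000 kb or more, and longer genes offer more ground. In NC the shares were 5.52%, 4.67% and 16.7%. Most genes with a peak held 1, namely 47 in NC and 169 in OE-KDM4A. A further 4 genes held 2 NC peaks, and in OE-KDM4A 27 genes held 2, 4 held 3, and VPS13B and CTNNA3 held 5 and 6.

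CTNNA3, which encodes an alpha catenin that links cadherins to actin, held 6 OE-KDM4A peaks over its 1851 kb on chromosome 10 (hg38) and no NC peak. They lay at 66217092 to 66217225, 66536331 to 66536450, 66790317 to 66790435, 66951180 to 66951302, 67074432 to 67074566 and 67719565 to 67719681. Their pileups were 7, 8, 7, 11, 10 and 8 fragments, and the highest −log10 q was 5.62. The peaks of 11 and 10 fragments also lay inside LRRTM3, a synaptic adhesion gene nested in CTNNA3. The gene held 3.30 OE-KDM4A peaks per Mb, beside 1.61 in the 1 Mb on either side, and those flanks held 2 NC peaks. The peaks were spread along the span, from 44.0 kb to 1546 kb from its 5′ end, and 1 of the 6 reached a −log10 q of 3. Of all genes of 1000 kb or more, 16.7% held an NC peak, so holding none was usual.

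VPS13B, a gene for a lipid transfer protein of the Golgi that is mutated in Cohen syndrome, held 5 OE-KDM4A peaks over 864 kb of chromosome 8, with no NC peak in it or in its flanks. Their pileups ran from 7 to 13 fragments, the strongest at 99755546 to 99755681 with a fold enrichment of 7.35 and a −log10 q of 7.84. The density was 5.98 per Mb inside and 0.541 in the flanks. The peak at 99204979 to 99205309 was 331 bp wide, far above the median width. Of all genes of 500 to 1000 kb, 4.67% held an NC peak, so holding none was usual.

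An NC peak lay in 5.92% of all long genes and in none of the 4 with 3 OE-KDM4A peaks, CAMKMT, MPP7, RP1 and WDPCP. CAMKMT, a calmodulin methyltransferase gene on chromosome 2, had the strongest of these, with pileups of 11, 10 and 12 fragments and a highest −log10 q of 6.63 at 44533354 to 44533466. WDPCP, a gene for planar cell polarity and cilium formation on the same chromosome, had pileups of 7, 9 and 7. MPP7, a cell polarity scaffold of epithelial junctions on chromosome 10, had 7, 8 and 9. RP1, a photoreceptor microtubule gene on chromosome 8, had 7 fragments at each of its 3 peaks. Inside the genes the densities were 7.60 per Mb in CAMKMT, 4.33 in WDPCP, 10.9 in MPP7 and 9.90 in RP1. The flanks held 0.532, 1.08, 1.63 and 0.529 per Mb. These 6 genes were named for their high counts, so a density above the flanks is built into the choice. At a −log10 q of 3 or more CTNNA3, MPP7 and WDPCP had 1 peak each, CAMKMT had 2, VPS13B had 3, and RP1 had none.

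**Figure D3:**
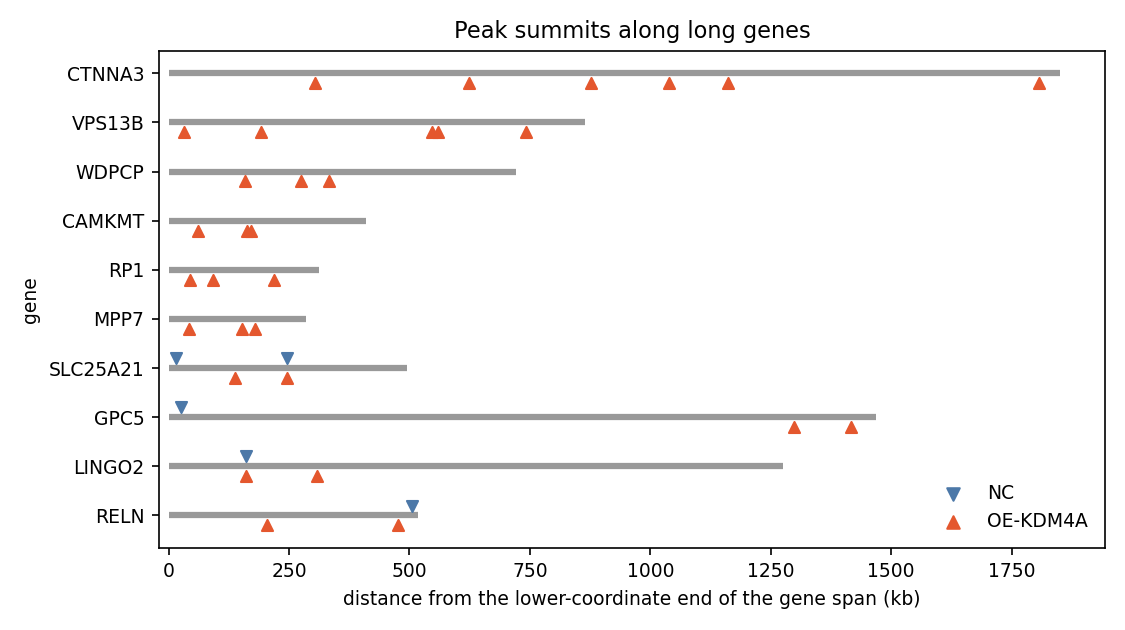
Summits of NC peaks (downward triangles) and OE-KDM4A peaks (upward triangles) along 10 long genes, each drawn as a grey bar to scale in kb from the lower-coordinate end of its span. CTNNA3 holds 6 and VPS13B 5 OE-KDM4A peaks with none in NC; the lists meet in SLC25A21 and LINGO2.

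Only 4 places inside long genes were called in both lists by an overlap of 1 bp or more, a share of 7.41% in NC (2.06 to 17.9) and 1.63% in OE-KDM4A (0.447 to 4.13). Among the other peaks of the 12 chromosomes outside the gene-free stretches the shares were 11.2% (7.68 to 15.6) and 3.11% (2.08 to 4.47), and the intervals overlap. The strongest shared place lay on chromosome 2, where the NC peak ran from 109199333 to 109199612 and the OE-KDM4A peak from 109199329 to 109199852. It falls in SH3RF3, a ubiquitin ligase gene, and within the 1123 kb that RefSeq gives for RANBP2, a nuclear pore gene whose span runs over several neighbours. By that span the place was counted in the class of 1000 kb or more. The pileup was 153 fragments over a background of 48.6 in NC and 165 over 4.67 in OE-KDM4A. Fold enrichment was therefore 3.11 in NC and 29.3 in OE-KDM4A, while the pileups differed little.

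The second shared place lay in SLC25A21, a mitochondrial carrier gene on chromosome 14, with the NC peak at 36924231 to 36924366 and the OE-KDM4A peak at 36924228 to 36924383. It had 14 fragments over 2.13 in NC and 16 over 0.905 in OE-KDM4A, with fold enrichments of 4.79 and 8.92. In LINGO2, a leucine-rich repeat receptor gene of the nervous system on chromosome 9, the summits were 1 bp apart, with 11 fragments over 2.13 in NC and 16 over 0.924 in OE-KDM4A. The background was lower in OE-KDM4A than in NC at these 3 of the 4 shared places and higher at the other.

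At the level of genes the lists met more often, in 18 long genes, where RANBP2 and SH3RF3 are both counted through the same NC peak. The 18 genes were 35.3% of the 51 genes with an NC peak (22.4 to 49.9) and 8.91% of the 202 with an OE-KDM4A peak (5.37 to 13.7), and 23.4% of all long genes held an OE-KDM4A peak. Besides the genes above they included GPC5, a glypican gene, RELN, which encodes the extracellular guidance protein reelin, CNTNAP2, DNAJC1, DOK6, FUT8, GPHN, HERC2, PHACTR2, SMYD3, SNTG1, TYW1 and VTI1A. From the NC peaks in these 13 genes to the nearest OE-KDM4A peak, the distance between summits ran from 2524 bp in FUT8 to 1221605 bp in CNTNAP2. In GPC5 the NC peak lay 25.9 kb from the 5′ end and the OE-KDM4A peaks 1297 and 1416 kb from it. In RELN the NC peak lay 12.6 kb from the 5′ end and the OE-KDM4A peaks 41.2 and 314 kb from it.

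The gene lists that follow are hand-made and partial, so their counts describe the listed genes and not every long gene of that function. The list of chromatin regulators also takes in transcription factors and genes of other functions, such as the recombination repair gene RAD51B. It held 2 of the 10 strongest OE-KDM4A peaks, in SMYD3 and ZNF521. SMYD3, a lysine methyltransferase gene on chromosome 1, held an OE-KDM4A peak of 25 fragments over 1.24 at 246002369 to 246002549, with a fold enrichment of 11.6 and a −log10 q of 20.2. An NC peak of 7 fragments lay 53335 bp away in the same gene. ZNF521, a zinc finger transcription factor gene on chromosome 18, held a peak of 23 fragments at 25312608 to 25312751 with a −log10 q of 11.7. KDM4C, a demethylase gene of the same family as KDM4A, held 2 OE-KDM4A peaks of 9 and 10 fragments. In total 7 of the 33 long genes on this list held an OE-KDM4A peak (21.2%, beside 23.4% of all long genes) and 3 an NC peak (9.09%, beside 5.92%), the latter in AUTS2, RAD51B and SMYD3. Chromatin genes off the list held peaks too, such as PRDM16, DPF3 and MTA3 with 1 NC peak each. KAT6B and SCMH1, also off the list, held 1 OE-KDM4A peak each, and off-list genes were not counted. The density of the listed genes was 0.486 per Mb in OE-KDM4A (0.210 to 0.958) and 0.182 in NC (0.0376 to 0.533).

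Adhesion genes held OE-KDM4A peaks at the density of long genes at large. Of 45 listed long adhesion genes 16 held an OE-KDM4A peak (35.6%, beside 23.4% of all long genes) and 4 an NC peak (8.89%, beside 5.92%). Their median span was 754 kb, and 34.7% of all genes of 500 to 1000 kb held an OE-KDM4A peak. Their 26 OE-KDM4A peaks gave 0.706 per Mb (0.461 to 1.03), and their 4 NC peaks 0.109 (0.0296 to 0.278). At the densities of their length classes these genes would hold 24.4 and 4.25 peaks. CTNNA3 supplied 6 of the 26, and without it the density was 0.571. CTNNA2, the alpha catenin of neurons, held 2 OE-KDM4A peaks over 1463 kb, with 10 and 14 fragments, the stronger at 80380081 to 80380235 on chromosome 2 (−log10 q of 9.01). LRRC4C, a netrin-G ligand gene on chromosome 11, held 2 of 10 and 9 fragments, 127 kb apart. CNTNAP3B on chromosome 9 also held 2, with 8 and 7 fragments, and its reads are uncertain because near-identical copies of it exist. In NC the adhesion genes with a peak included CNTNAP2, GPC5 and RELN, each of which also held an OE-KDM4A peak. Long adhesion genes with no peak in either list included NCAM1, CADM1, OPCML, NTM, CDH2, PCDH9, DCC, SDK1 and PTPRM.

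Synapse genes were less dense in OE-KDM4A than the long genes in no list, within counting error. Of 53 listed long synapse genes 18 held an OE-KDM4A peak (34.0%) and 5 an NC peak (9.43%), beside 23.4% and 5.92% of all long genes. Their median span was 571 kb, and the shares over all genes of 500 to 1000 kb were 34.7% and 4.67%. The densities were 0.538 per Mb in OE-KDM4A (0.329 to 0.832, 20 peaks) and 0.135 in NC (0.0437 to 0.314, 5 peaks), where 24.7 and 4.31 would come from their length classes. Long genes in none of the lists stood at 0.769 (0.663 to 0.887) and 0.175 (0.127 to 0.236). Presynaptic genes with an OE-KDM4A peak were NRXN3, PTPRD, RIMS2, UNC13B and UNC13C, with 1 each. Receptor and scaffold genes with one were the AMPA receptor gene GRIA4, the GABA receptor gene GABRG3, the neurotrophin receptor gene NTRK2, GPHN, MAGI2 and DLGAP1. The NC peaks included those in CNTNAP2, GPHN and SNTG1. The glutamate receptor genes GRIK2, GRIK3, GRIK4, GRID1, GRM3, GRM5 and GRM8 held none in either list.

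CNTNAP2, a neurexin family gene of 2304 kb on chromosome 7 that is counted as adhesion, synapse and fragile site gene, held 1 peak in each list. The NC peak at 148331602 to 148331725 had 47 fragments over a background of 10.2 and a −log10 q of 12.3, the second highest of NC inside long genes. The OE-KDM4A peak lay about midway along the gene with 10 fragments over 0.905. It was the OE-KDM4A peak nearest to the NC peak.

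Fragile site genes were uneven. All 19 listed genes were long, with a median span of 1195 kb. In OE-KDM4A 8 of them (42.1%, beside 57.1% of all genes of 1000 kb or more) held 13 peaks (0.572 per Mb, 0.304 to 0.977), and in NC 3 held 1 each (0.132 per Mb, 0.0272 to 0.386). At their length classes' densities 14.9 and 2.47 would be expected. CTNNA3 alone held 6 of the 13, and without it the OE-KDM4A density was 0.335. The other genes with an OE-KDM4A peak, with 1 each, included CNTNAP2, DAB1, GPHN, MAGI2 and RORA, of which DAB1, a reelin pathway adaptor gene, had the highest −log10 q (6.71). NC peaks lay in AUTS2, CNTNAP2 and GPHN. LRP1B, DLG2, IMMP2L, DPYD, NBEA, ASTN2, DCC, SDK1, THSD7A and ESRRG held none in either list. The list and the adhesion and synapse lists share genes, so their counts are not independent, and 30 of the 163 listed long genes are in more than 1 list.

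**Figure D4:**
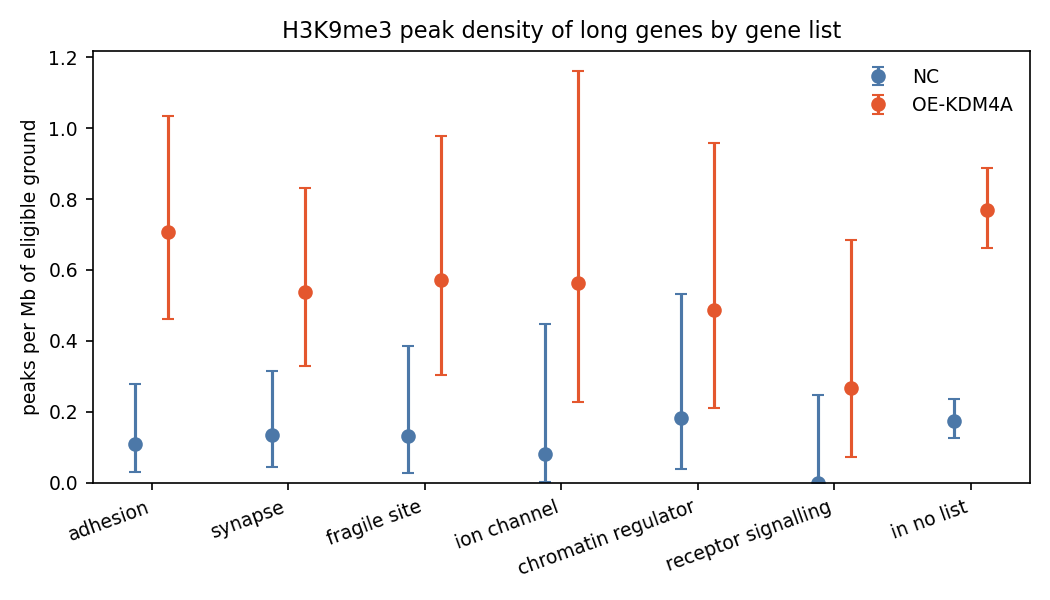
Peaks per Mb of eligible ground in long genes of 6 gene lists and of no list, for NC and OE-KDM4A. Points are densities and bars exact 95% Poisson intervals; the lists overlap one another in each condition, and the receptor signalling list is lowest (0 in NC, 0.267 per Mb in OE-KDM4A).

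The listed ion channel genes held OE-KDM4A peaks at about the share of all long genes. Among these 24 genes 6 held an OE-KDM4A peak (25%, beside 23.4%), namely the potassium channel genes KCNB2 and KCNQ5, the calcium release channel genes RYR2 and RYR3, TRPM3 and the channel subunit gene DPP10, the last with 2. PIEZO2, a mechanosensitive channel gene, was the 1 listed gene with an NC peak. The density was 0.563 per Mb in OE-KDM4A (0.226 to 1.16), from 7 peaks where 8.65 would come from the length classes. Off the list, the channel gene ANO1 also held 1 NC peak, and the potassium channel gene KCNQ1 held 1 OE-KDM4A peak. Of the 22 long genes on the receptor signalling list 4 held an OE-KDM4A peak (18.2%, beside 23.4%), namely FGF14, NTRK2, PTPRD and the nuclear receptor gene RORA, and no listed gene held an NC peak. TGFBR3, a TGF-beta coreceptor gene off the list, held 2 NC peaks. The listed genes' density of 0.267 per Mb in OE-KDM4A (0.0727 to 0.684) overlaps that of all long genes (0.614 to 0.792), and 9.93 peaks would come from their length classes where 4 were called. The estrogen receptor gene ESR1, the ERRγ gene ESRRG, ERBB4 and ALK held no peak in either list. The 5 longest genes without a peak in either list were DLG2 (2173 kb), CSMD1 (2060 kb), EYS (1987 kb), LRP1B (1900 kb) and PCDH15 (1825 kb). A list of called peaks does not show that the mark was absent there.

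Among the strongest NC peaks in long genes after those of SH3RF3 and CNTNAP2 were ones in ANO1, a chloride channel gene (15 fragments, −log10 q of 7.29), CCDC3 (12 fragments, 7.02), the tight junction gene TJP1 (12 fragments, 5.94) and the transcription factor gene PRDM16 (12 fragments, 5.74). None of these 4 genes held an OE-KDM4A peak, and 18.8% of all genes of 200 to 500 kb held one. TGFBR3 and TJP1 each held 2 NC peaks and none in OE-KDM4A. TGFBR3 stood at 9.12 NC peaks per Mb with no NC peak and 4 OE-KDM4A peaks in its flanks. Among the 10 strongest OE-KDM4A peaks were also those in CHN2, DNAJC1 and DENND2B, with 19, 17 and 14 fragments.

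In their long genes, chromosomes 14 and 15 stood apart in NC. Their long genes held 16 of the 54 NC peaks on 32.8 Mb, a density of 0.488 per Mb, against 0.118 per Mb on the other 10 chromosomes with the gene-free stretches left out. The OE-KDM4A densities were 0.702 and 0.689, so the ratio of the lists was 1.44 (0.727 to 2.91) on chromosomes 14 and 15 and 5.86 (4.10 to 8.60) on the others. Ground outside protein-coding genes differed in the same direction, with ratios of 2.40 (1.40 to 4.27) and 5.23 (4.24 to 6.50), whose intervals just overlap. On that ground chromosome 10 had the highest NC density, 0.326 per Mb, and a ratio of 2.56 (1.45 to 4.68). In genes under 200 kb the ratios were 2.54 (1.301 to 5.26) on chromosomes 14 and 15 and 2.72 (2.06 to 3.62) on the others. The 2 chromosomes were picked after their values were seen, among 12. Without them long genes held 38 NC and 222 OE-KDM4A peaks. The NC peaks of chromosome 14 lay in DPF3, FUT8, GPHN, PRKD1, RAD51B, TTLL5 and, with 2, SLC25A21. Those of chromosome 15 included peaks in HERC2, MEGF11 and OTUD7A and, with 2 each, SLCO3A1 and TJP1. Chromosome 18 had the lowest OE-KDM4A density, 0.298 per Mb from 4 peaks.

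**Figure D5:**
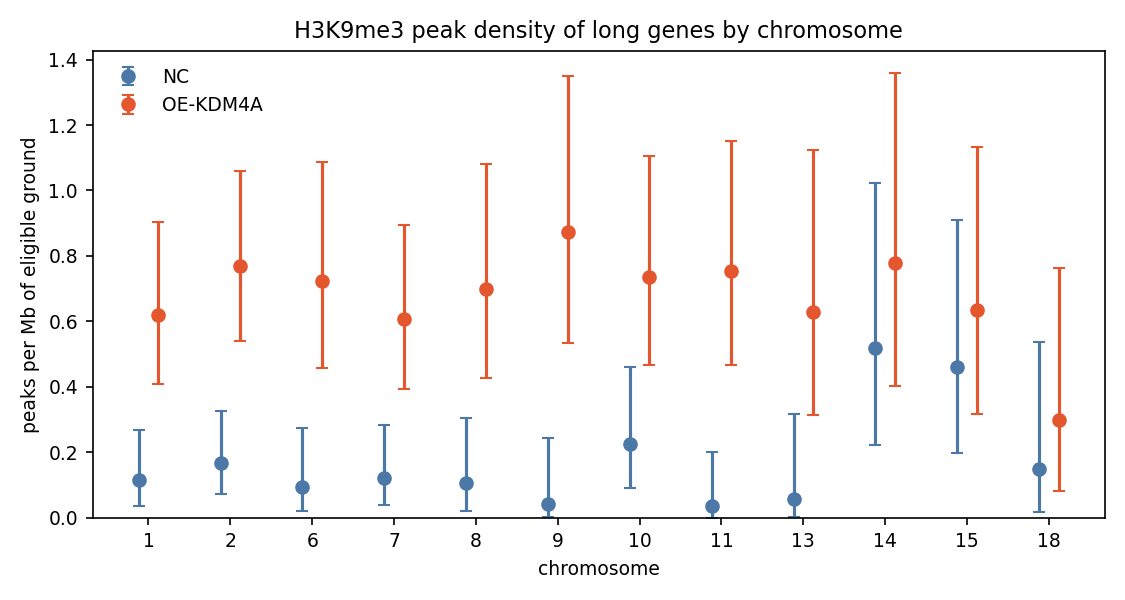
Peaks per Mb of eligible ground in long genes (vertical axis) on each of the 12 chromosomes (horizontal axis), gene-free stretches left out. Points are densities and bars exact 95% Poisson intervals; NC is highest on chromosomes 14 (0.519) and 15 (0.461), and OE-KDM4A runs from 0.298 on chromosome 18 to 0.875 on chromosome 9.

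Along the genes no part was bare. Strand was known for genes with 41 NC and 188 OE-KDM4A peaks. With each span cut into 4 equal lengths from the 5′ end, these held 10, 11, 6 and 14 NC peaks and 55, 47, 49 and 37 OE-KDM4A peaks. The length nearest the 3′ end thus held 34.1% in NC (20.1 to 50.6) and 19.7% in OE-KDM4A (14.2 to 26.1), and the intervals overlap. Median distances from the 5′ end were 191 kb in NC and 169 kb in OE-KDM4A. Neighbouring OE-KDM4A peaks of a gene lay a median of 122 kb apart (44 pairs), and 3 pairs lay under 20 kb apart, in KIF26B (4.22 kb), CAMKMT (9.40 kb) and VPS13B (13.6 kb). The 4 NC pairs lay 47.1 to 230.2 kb apart. Within 500 kb of the summit the peaks had a median of 5 protein-coding genes in NC (quartiles 3.25 and 7.75) and 4 in OE-KDM4A (2 and 7). Other peaks of the same chromosomes outside the gene-free stretches had 9 and 6, and those outside protein-coding genes alone had 7 and 4. A long gene fills part of this window by its own length.

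At the limits of the rule, genes of 200 to 220 kb (108 genes) held 2 NC and 22 OE-KDM4A peaks, and genes of 180 to 200 kb (129 genes) held 4 and 14. Inside long genes, 6 NC and 9 OE-KDM4A summits lay within 1 kb of a gene end and were not counted, and 0 and 3 lay 1 to 2 kb from one.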

How the data were processed

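H3K9me3 ChIP-seq peak lists of 2 libraries, 1 NC and 1 OE-KDM4A, were used. The submitters' processing notes list Trimmomatic, Bowtie 1.1.2, MACS2 2.1.0 and hg38 but no settings; peaks were called per library. The deposited columns are fold enrichment (a linear ratio), −log10 p, −log10 q and a score, all made by the authors. The score equals 10 times −log10 q without decimals. Depth and input libraries were not analysed here.

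Where several lines gave 1 interval, the summit of highest −log10 q stood for it. Gene spans came from a RefSeq table of GRCh38.p14, which includes predicted models, and strand from a RefSeq promoter table (696 of 862 long genes). Exons, GC content and peak sequences were not analysed here. Spans were assigned to the longest gene where they overlap. Pileup and background were recovered from MACS2's formulas, fold = (pileup + 1) / (background + 1) with a Poisson p, within 0.001 of the deposited −log10 p at every member peak. Intervals are Poisson, Clopper-Pearson or exact for a ratio of counts; no test between conditions was run. The 6 gene lists hold 211 symbols, of which 163 are long and on the 12 chromosomes. Members and lists were chosen with earlier results of these data known.

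Named genes are those with 3 or more peaks in a list, those with peaks of both lists, the 10 strongest peaks of each list, up to 8 genes per gene list, the 10 densest with 2 or more peaks, and the 5 longest with none. Some named results are not reported here. Other genes of a gene list, genes named as off a list, genes with an NC peak on chromosomes 14 and 15, and KIF26B were named after their values were seen. Alternatives were other limits on gene length, distance, q and fold, equal list lengths, joined peaks, peak middles and left-out genes or chromosomes. In a simulation, 750 of 750 placed positions and 500 of 500 pileups were recovered. Scripts ran in Python 3.11.15 (scipy 1.17.1, numpy 2.4.6, pandas 2.3.3; figures, matplotlib 3.10.9).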

Additional observations from a re-analysis of the deposited data

How the results depend on the processing

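No paired analysis was possible because each condition has 1 library. Of the 161 alternative values of the main counts, ratios and densities, 125 kept within their limits. For ratios and densities these limits were the 95% interval of the reported value, which is often wide. Joining nearby peaks or using peak middles changed no value. Gene length limits of 100 or 300 kb cannot alter the ratios of the 2 longer classes. Leaving out a gene cannot alter lists without it. The 125 therefore include values that could not move and do not measure how stable the results are. Only the cut of the OE-KDM4A list to the NC length turned directions: the ratio became 0.463 over all long genes and 0.400, 0.714 and 0.571 by rising length class, with 25 OE-KDM4A peaks and 0.0272, 0.0269 and 0.0440 per Mb in adhesion, synapse and fragile site genes. A gene length limit of 100 or 300 kb gave 86 or 34 NC peaks. A −log10 q of 3 or more left 20 NC and 120 OE-KDM4A peaks, with OE-KDM4A densities of 0.353 (adhesion), 0.323 (synapse) and 0.176 (fragile site). A −log10 q of 5 or more left 6 and 40, a ratio of 6.67 and of 6 in genes of 200 to 500 kb, NC densities of 0.0272 (adhesion) and 0.0269 (synapse), and OE-KDM4A densities of 0.0543, 0.0538 and 0.0879. A fold enrichment of 5 or more left 14 and 112, a ratio of 8 and of 25 in genes of 1000 kb or more, NC densities of 0.0272, 0.0269 and 0, and OE-KDM4A densities of 0.353, 0.269 and 0.176. Flanks of 2 Mb, with the gene-free stretches kept in, held 0.225 NC and 0.895 OE-KDM4A peaks per Mb, the latter above the interval inside long genes. At these limits genes of 500 to 1000 kb held no NC peak, so no ratio was formed there. Stricter limits leave fewer peaks to count. Leaving out RANBP2 with SH3RF3 (ratio 4.58) or chromosomes 14 and 15 (ratio 5.84), both chosen after seeing the data, turned no direction.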
